A study of Mus musculus with 18 samples.

Results

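The histone marks H3K27ac and H3K4me3 were compared within the libraries labelled immature megakaryocyte (iMK). The members were the 4 iMK chromatin immunoprecipitation (ChIP-seq) libraries, 2 of each mark, out of 18 samples in the series. They were chosen by label alone: cell type and antibody. The cells came from the bone marrow of adult male C57BL6 mice, and the labels name no engineered allele or treatment. The iMK gate took cells carrying CD41 and CD61 that lacked Sca1, cKit and Ter119, and left out cells with CD4, CD8, IL7Ra, CD11b, Ly6g or CD45R. The 4 matching libraries of erythroblasts (ERY; the same lineage markers excluded except Ter119, which was required together with CD44 and low forward scatter) served as the comparison, and 10 input samples were not used here. Each library was deposited as a peak list, and the lists hold no read depth.

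H3K4me3 is a trimethylation of histone H3 that marks the starts of genes, above all those rich in CpG dinucleotides, where proteins that bind unmethylated CpG recruit the methyltransferases. H3K27ac is an acetylation written by EP300 and CREBBP at active promoters and at enhancers. A promoter with both marks is usually active, H3K4me3 without acetylation is found at promoters that are poised or held by Polycomb, and H3K27ac without H3K4me3 is the usual mark of an enhancer. Megakaryocytes are the marrow cells that shed platelets.

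A mark was called at a promoter when both of its iMK libraries had a peak within 1 kb of any annotated start of a protein-coding gene. Of 21938 genes, 7602 (34.7%) had both marks, 2683 (12.2%) had H3K27ac alone, 151 (0.688%) had H3K4me3 alone and 11502 (52.4%) had neither. Of the 7753 promoters called for H3K4me3, 98.05% were also called for H3K27ac, against 73.91% of the 10285 in the other direction. The order of these shares turned with the H3K4me3 library: of the promoters with a peak in H3K4me3 replicate 2, 87.62 and 89.51% had one in H3K27ac replicates 1 and 2, while 97.19 and 96.51% of the promoters in those H3K27ac libraries had a peak in H3K4me3 replicate 2. Among joined regions away from protein-coding starts, 214 of 16826 (1.27%) had both marks and 8500 had H3K27ac alone.

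The sequence under the peaks differed between these classes in its CpG content, and 7 examples are printed for that reason, with CG dinucleotides in capitals. The first 5 are the 250 bases before a gene's start, taken from RefSeq on GRCm38.p6, the assembly that mm10 names, and are written 5′ to 3′ on the gene's strand. Etv6 (chr6:134035450-134035699, + strand) is an ETS family repressor needed for megakaryocyte maturation. S100a8 (chr3:90668821-90669070, + strand) is a calcium-binding protein of neutrophils. Each gene had both marks, but the first promoter is rich in CpG and the second is poor.
Etv6: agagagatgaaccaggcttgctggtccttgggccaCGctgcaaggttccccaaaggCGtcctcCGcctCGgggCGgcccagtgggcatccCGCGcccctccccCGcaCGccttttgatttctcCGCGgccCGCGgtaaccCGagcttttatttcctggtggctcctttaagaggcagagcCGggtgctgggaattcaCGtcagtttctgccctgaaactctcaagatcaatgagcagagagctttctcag
S100a8: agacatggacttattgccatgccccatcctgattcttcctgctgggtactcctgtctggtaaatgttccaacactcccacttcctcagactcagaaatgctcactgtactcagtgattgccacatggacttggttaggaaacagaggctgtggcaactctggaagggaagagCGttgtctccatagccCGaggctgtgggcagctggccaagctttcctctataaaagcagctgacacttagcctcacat
Ccl3 (chr11:83649379-83649628, - strand), a chemokine of myeloid cells, had H3K27ac in both libraries and H3K4me3 in neither. Rhof (chr5:123132630-123132879, - strand), a small GTPase that shapes filopodia, had H3K4me3 in both libraries and no H3K27ac promoter peak. Dlx1 (chr2:71529195-71529444, + strand), a homeobox factor of forebrain development, had H3K4me3 in replicate 2 only.
Ccl3: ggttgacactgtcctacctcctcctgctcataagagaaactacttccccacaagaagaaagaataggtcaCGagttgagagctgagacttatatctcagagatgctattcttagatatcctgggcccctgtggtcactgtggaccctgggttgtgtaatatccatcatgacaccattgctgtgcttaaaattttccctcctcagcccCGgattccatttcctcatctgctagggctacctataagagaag
Rhof: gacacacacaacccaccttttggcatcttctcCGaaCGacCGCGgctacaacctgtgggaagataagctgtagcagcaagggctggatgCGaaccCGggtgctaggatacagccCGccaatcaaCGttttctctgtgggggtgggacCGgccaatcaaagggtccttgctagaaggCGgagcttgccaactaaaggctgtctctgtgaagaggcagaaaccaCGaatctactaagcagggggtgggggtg
Dlx1: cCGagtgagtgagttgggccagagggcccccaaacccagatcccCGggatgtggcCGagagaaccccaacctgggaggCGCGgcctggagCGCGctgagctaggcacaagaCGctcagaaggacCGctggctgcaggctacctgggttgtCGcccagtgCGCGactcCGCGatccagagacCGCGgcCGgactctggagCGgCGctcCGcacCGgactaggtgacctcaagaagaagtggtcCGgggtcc
The last 2 come from distal regions with both marks, and each is the middle 300 bases of the longest stretch under peaks of all 4 libraries, on the + strand of GRCm38.p6. The first (chr3:96500851-96501150) lies between genes, 21172 bp from the nearest protein-coding start, that of Hfe2, and holds the glycine tRNA gene n-TGtcc7. The second (chr11:74571251-74571550) lies in an intron of Rap1gap2, which encodes a GTPase-activating protein for Rap1 that is known from platelets.
Hfe2: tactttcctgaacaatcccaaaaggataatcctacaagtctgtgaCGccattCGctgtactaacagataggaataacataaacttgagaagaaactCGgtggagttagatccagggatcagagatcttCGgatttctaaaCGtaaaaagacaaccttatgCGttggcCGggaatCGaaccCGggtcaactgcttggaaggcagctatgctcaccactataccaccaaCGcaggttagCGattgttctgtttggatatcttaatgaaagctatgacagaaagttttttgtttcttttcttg
Rap1gap2: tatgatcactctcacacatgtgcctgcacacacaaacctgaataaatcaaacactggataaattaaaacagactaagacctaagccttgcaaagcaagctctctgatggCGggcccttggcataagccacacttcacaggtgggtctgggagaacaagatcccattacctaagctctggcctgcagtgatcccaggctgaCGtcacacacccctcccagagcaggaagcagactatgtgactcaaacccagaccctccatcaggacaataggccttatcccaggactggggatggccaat
The RefSeq starts lie 0 to 344 bases from the GENCODE starts. The 250 bases hold 16 CG dinucleotides at Etv6, 11 at Rhof and 22 at Dlx1, against 2 each at S100a8 and Ccl3. The 300 bases near Hfe2 hold 11 and those in Rap1gap2 hold 2.

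The 4 lists were not of equal length. The H3K27ac libraries had 22931 (replicate 1) and 24781 (replicate 2) peaks, which spanned 42.94 and 53.19 Mb. For H3K4me3 there were 7578 and 13222 peaks, which spanned 11.34 and 33.84 Mb. The median fold over control was 5.79 and 5.649 for H3K27ac, 4.988 for H3K4me3 replicate 1 and 3.2 for replicate 2. H3K4me3 replicate 1 had 39 peaks on chromosome X, against 350 in replicate 2 and 378 and 403 in the H3K27ac libraries. Of the promoters called in H3K4me3 replicate 1, 99.56% were also called in replicate 2, so the shorter list was nearly contained in the longer and decided most of the H3K27ac-alone class: 2460 of its 2683 genes had an H3K4me3 peak in replicate 2. Without replicate 1 the class came to 223 genes and H3K4me3 alone came to 1523. Without H3K27ac replicate 1, H3K4me3 alone came to 87.

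The label was checked against marker genes of the cell types that marrow holds. Of 13 megakaryocyte markers, promoters were called at 1 and 3 in the H3K27ac libraries and at 1 and 4 in the H3K4me3 libraries, with Gp6 and Pf4 at 0% of their loci in all 4. Of 11 neutrophil and monocyte markers, 8 and 10 were called for H3K27ac and 5 and 9 for H3K4me3, although the gate left out CD11b and Ly6g. The summed coverage of the megakaryocyte marker loci was 14.96 to 84.17% per library and that of the neutrophil and monocyte loci 31.64 to 393.9%, with none of these at 0 in all 4. In the ERY libraries 0 of the 11 were called. Of the 13 megakaryocyte markers, the ERY libraries called 5 and 4 for H3K27ac and 0 and 0 for H3K4me3. Their summed coverage of the megakaryocyte loci was 238.5 and 207.7% for H3K27ac and 33.52 and 18.21% for H3K4me3. In the libraries labelled iMK, erythroid markers were called at 2 to 3 of 10 and lymphoid at 0 to 2 of 7. Stem and progenitor markers were called there at 1 to 5 of 6 and stromal at 0 to 1 of 6. The markers thus go against the label, and the data are described below as those of the libraries labelled iMK. The part of other cells in the results was not tested, and a mark in fewer cells cannot be told apart from less of the mark per cell.

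The 2 genes that define the gate differed. Itgb3, which encodes CD61, the beta 3 integrin of platelets, had both marks. Its locus, here the annotated gene plus 10 kb at either end, was covered over 5.82 and 8.73% by H3K27ac and over 1.94 and 6.06% by H3K4me3. Itga2b, which encodes CD41, its integrin partner, was covered over 0 and 0% by H3K27ac and over 0 and 6.52% by H3K4me3. No H3K27ac peak was therefore listed at the locus of the surface protein that selected the cells, and its H3K4me3 promoter peak, in replicate 2 only, had a fold of 1.86. Neither difference passed limma's moderated test (3.27 ± 2.74 percentage points, SE, Benjamini-Hochberg adjusted p = 0.777 for Itgb3, and -3.26 ± 2.16, adjusted p = 0.725 for Itga2b, n = 2 libraries per mark).

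Around the start of the gene the H3K4me3 libraries lay on either side of the H3K27ac libraries, so no single outline of that mark can be given. At genes with both marks, a peak covered the 5′-most start in 90.63 and 92.08% of genes for H3K27ac and in 78.36 and 94.28% for H3K4me3. At 1 kb upstream the shares were 31.82 and 37.45% against 12.54 and 53.87%, and at 1 kb downstream 58.77 and 66.01% against 41.88 and 83.15%. All 4 libraries thus covered more genes at 1 kb downstream than at 1 kb upstream. These genes had a median of 5 annotated starts, and the others lie downstream of the 5′-most by construction. The shares therefore do not show how far a peak reaches into the gene from 1 start. Which mark was wider could not be settled: the H3K27ac peak was the wider in 76.7 and 84.62% of genes when set beside H3K4me3 replicate 1, and in 11.81 and 21.18% beside replicate 2.

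**Figure D1:**
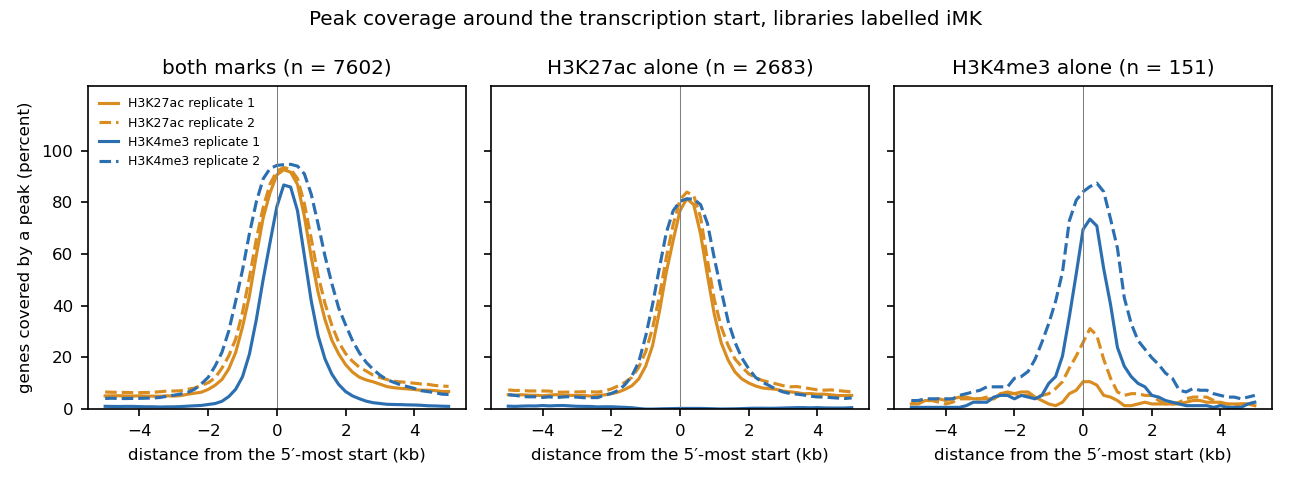
Percent of genes whose position is covered by a peak (y axis), by distance from the 5′-most transcription start (x axis, kb), for 3 promoter classes, with orange lines for H3K27ac, blue for H3K4me3, solid for replicate 1 and dashed for replicate 2. At genes with both marks all 4 lines peak near the start, between 78.36 and 94.28% at the start itself, while at H3K27ac-alone genes H3K4me3 replicate 1 lies near 0 and replicate 2 near the H3K27ac lines.

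Peaks of H3K27ac and of H3K4me3 replicate 2 were taller at genes with both marks. The median fold of the promoter peak was 11.69 and 10.49 for H3K27ac at genes with both marks, 7.987 and 7.251 at genes with H3K27ac alone, and 4.918 and 4.993 at the 215 genes (0.98% of all) with H3K27ac in both libraries and no H3K4me3 peak in either. For H3K4me3 replicate 2 it was 3.767 at genes with both marks, 3.019 at genes with H3K27ac alone and 2.514 at the 1061 genes (4.84%) where that library alone had a peak. For H3K4me3 replicate 1 the values were close, at 5.169 with both marks and 5.036 with H3K4me3 alone. The class was set by these same peaks, so the order of the folds is a description.

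CpG content, which the rule did not use, was higher in the classes called for H3K4me3 than in H3K27ac alone. The median ratio of observed to expected CpG over the promoter windows was 0.4718 at genes with both marks and 0.5029 at those with H3K4me3 alone, against 0.3658 with H3K27ac alone, 0.2471 with neither and 0.3619 over all genes. A ratio of at least 0.4 was reached by 69.42% of genes with both marks, 71.52% with H3K4me3 alone, 41.74% with H3K27ac alone and 24.53% with neither, beside 42.5% of all. The 215 genes with acetylation and no H3K4me3 peak had a median of 0.2184, and 16 of them (7.442%) reached 0.4. The 1061 genes with H3K4me3 in replicate 2 only stood at 0.4429, and 61.83% reached 0.4. Most H3K27ac-alone genes, 2460, lacked only a peak in H3K4me3 replicate 1, and these had a median of 0.3787. The contrast with that class thus rested largely on replicate 1.

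Read the other way, the share of promoters called for H3K27ac rose from 6.442% at a ratio under 0.2 to 76.58% at 0.8 and over, and for H3K4me3 from 1.171 to 70.45%. Chromosome X held 227 of the 2683 H3K27ac-alone genes (8.461%) and 33 of the 7602 with both marks (0.4341%), beside 4.321% of all genes, which goes with the few X peaks of H3K4me3 replicate 1.

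**Figure D2:**
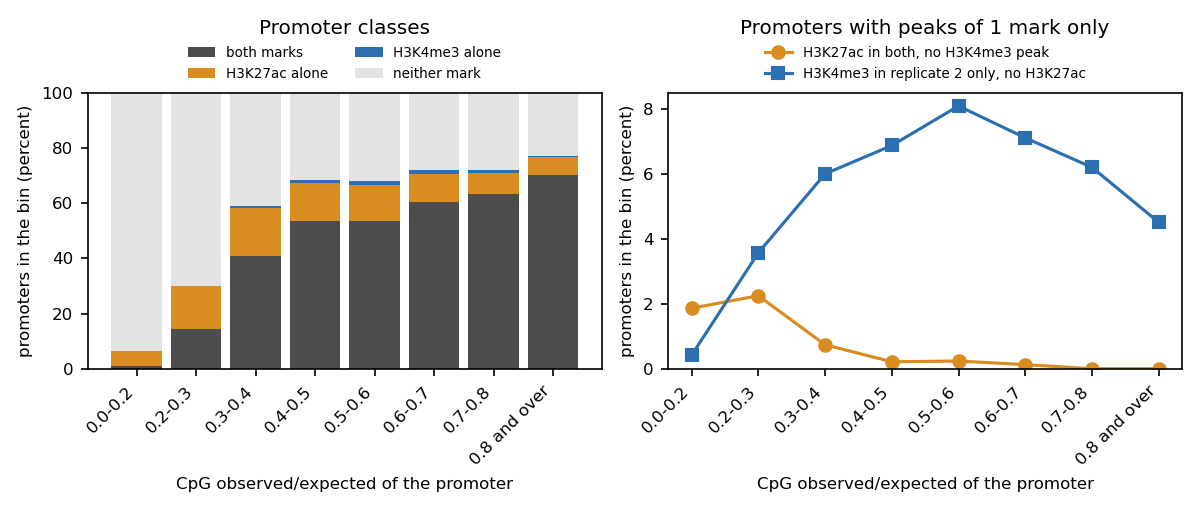
Promoters grouped by their ratio of observed to expected CpG (x axis). Left, percent of promoters of each bin in the 4 classes, where both marks (dark grey) grows from 1.109 to 70.09%. Right, percent of each bin with H3K27ac in both libraries and no H3K4me3 peak (orange circles), highest at 2.244% between 0.2 and 0.3, and with H3K4me3 in replicate 2 only and no H3K27ac (blue squares), highest between 0.5 and 0.6.

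Short motifs were counted on both strands from 250 bases before to 50 after the 5′-most start. GGGCGG, the GC box, was found at 64.08% of genes with both marks, 21.86% of the 215 acetylated genes without H3K4me3 and 43.01% of all. CCGGAAG, an ETS site with CpG, was found at 21.23, 3.721 and 10.78%. The shares ran the other way for GAGGAAGT, the purine-rich site of the myeloid ETS factor PU.1 (3.104, 6.047 and 3.227%), and for TATAAA, the TATA box (6.393, 15.35 and 12.65%). The ETS patterns share the core GGAAG but cannot match at the same position, and a match is not a bound site.

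The ERY libraries, which the classes did not use, gave an independent view of the same promoters. Of genes with both marks in the libraries labelled iMK, 69.36% had both marks in ERY and 14.77% had neither, beside 28% of all genes with both marks, 10.8% with H3K27ac alone, 0.643% with H3K4me3 alone and 60.6% with neither in ERY. Of the H3K27ac-alone genes, 25.34% had both marks and 31.01% again had H3K27ac alone in ERY. Of the 151 H3K4me3-alone genes, 2 had H3K4me3 alone in ERY and 109 had neither mark. None of the 215 acetylated genes without H3K4me3 had both marks in ERY, 34 (15.81%) had H3K27ac alone and 180 (83.72%) had neither.

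Of 42 platelet and megakaryocyte surface and granule genes, 8 had both marks, 5 had H3K27ac alone and 29 had neither, beside 34.7% of all genes with both marks and 52.4% with neither. Those with both marks included Itgb3, Cd9, a tetraspanin, Plek, the protein kinase C substrate pleckstrin, and Nbeal2, which is needed to form alpha granules. Nbeal2 had the most acetylation of these, over 19.44 and 29.57% of its locus, with H3K4me3 over 6.886 and 15.72%. Among the 29, the genes for the von Willebrand factor receptor (Gp1ba, Gp1bb, Gp9) and the granule chemokines Pf4 and Ppbp had no promoter peak in any of the 4 libraries.

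Fermt3 and P2ry12 show the H3K27ac-alone members. Fermt3, the kindlin that activates platelet integrins, had H3K27ac over 18.27 and 21.72% of its locus and H3K4me3 over 1.975 and 22.71%, with the H3K4me3 promoter peak in replicate 2 only. P2ry12, the ADP receptor blocked by clopidogrel and also a marker of microglia, had 11 and 17.01% against 0 and 3.604%. It was the sole member of this list among the 215 genes without an H3K4me3 promoter peak.

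Of 20 cytoskeleton genes, 15 had both marks, Was had H3K27ac alone, Actn1 had H3K4me3 alone, and Tubb1, Myl9 and Dnm3 had neither. Tubb1, the beta tubulin of the platelet marginal band, had no promoter peak, and 3.332 and 5.539% of its locus under H3K27ac against 0 and 6.275% under H3K4me3. Myh9, the non-muscle myosin heavy chain mutated in inherited macrothrombocytopenia, had acetylation over 32.09 and 39.94% of its locus and H3K4me3 over 2.362 and 5.316%. The acetylated stretch exceeded the methylated in every pair of libraries at Myh9, whereas at Pfn1, the actin-binding profilin, the values overlapped (32.46 and 42.99% against 26.32 and 51.77%).

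Of 12 megakaryocyte transcription factors, 9 had both marks, among them Fli1, Etv6, Mef2c, Meis1, Srf, Ets1, Ikzf5 and Mafg. At Etv6 the H3K27ac libraries covered 33.8 and 40.24% of the locus and the H3K4me3 libraries 0.9432 and 3.773%. At Fli1, an ETS activator of platelet genes, they covered 22.61 and 29.15% against 2.133 and 9.527%. Acetylation was thus wide and H3K4me3 narrow at both ETS genes, whereas at Mafg, the small Maf partner of Nfe2, the marks overlapped (34.41 and 35.81% against 18.96 and 48.45%). Erg had H3K27ac alone, and Nfib had no peak.

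Gata2, which directs progenitors and early megakaryocytes, had no H3K27ac peak in its locus, and H3K4me3 over 0 and 21.12%, with a promoter fold of 2.093 in replicate 2. Gfi1b, a repressor needed by erythroid cells and megakaryocytes, had the same layout, at 0 and 0% against 0 and 14.75%. Itga2b, Gp5, Itga2 and Serpine2 also had an H3K4me3 promoter peak in replicate 2 and in no other of the 4 libraries. Gata1 had none at all. Of the 9 regulators shared with the erythroid lineage, Gata1 and Gfi1b had neither mark and Zfpm1, the cofactor FOG1, had H3K27ac alone, while Runx1, Lyl1, Nfe2 and Ldb1 were among the 6 with both. Runx1, the core binding factor behind familial platelet disorder, had 18.88 and 25.01% under H3K27ac and 1.798 and 5.64% under H3K4me3.

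**Figure D3:**
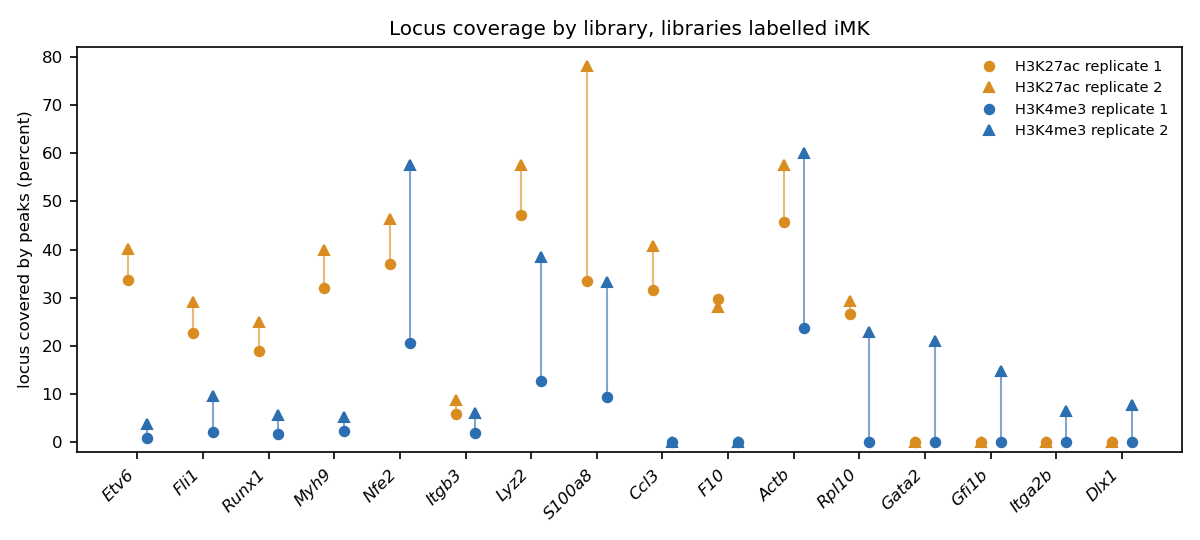
Percent of the locus (the gene plus 10 kb at either end) covered by peaks (y axis) at 16 named genes, with orange for H3K27ac, blue for H3K4me3, circles for replicate 1, triangles for replicate 2 and a line joining the replicates. The orange points lie above the blue at Etv6, Fli1, Runx1, Myh9, Ccl3 and F10, the marks overlap at Nfe2, Itgb3 and Actb, and at Gata2, Gfi1b, Itga2b and Dlx1 only H3K4me3 replicate 2 is above 0.

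Of 29 neutrophil and monocyte genes, 14 had both marks, 8 had H3K27ac alone and 7 had neither, beside 34.7, 12.2 and 52.4% of all genes. Those with both included the myeloid regulators Spi1, Cebpa and Irf8, the lysozyme gene Lyz2, the growth factor receptors Csf1r and Csf3r, and Itgam, which encodes CD11b, a protein the gate excluded. Lyz2 was acetylated over 47.22 and 57.62% of its locus and had H3K4me3 over 12.8 and 38.41%. S100a8, with the CpG-poor promoter printed above, had 33.41 and 78.16% against 9.498 and 33.35%, so that its 2 H3K27ac libraries lay far apart and the lower nearly met the higher H3K4me3 library. The secondary granule genes Ngp (24.93 and 44.7% against 0 and 11.18%) and Mmp8 (26.26 and 48.24% against 0 and 15.32%) had H3K27ac alone, with an H3K4me3 promoter peak in replicate 2.

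Of 27 red cell genes found, 7 had both marks, 1 had H3K27ac alone and 19 had neither, among them the alpha and beta globins, Alas2 and Slc4a1. For this list and those that follow, the shares over all genes were 34.7, 12.2 and 52.4%. Of 21 lymphoid genes 0 had both marks, Cd3d and Cd79b of the antigen receptors had H3K27ac alone, Lck had H3K4me3 alone (4.857 and 9.713% of its locus, with H3K27ac over 6.623 and 3.532%) and 18 had neither. Of 16 stem and progenitor genes, Hoxb4, Myb, Cd48 and Bmi1 had both marks and 12 had neither, and of 12 stromal and endothelial genes Pecam1 had H3K27ac alone and 11 had neither.

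Of 34 immediate early and stress genes, 27 had both marks, 6 had H3K27ac alone and Egr3 had neither. Zfp36, the RNA-binding protein that limits cytokine messages, was covered over 66.47 and 69.02% by H3K27ac and over 23.86 and 70.73% by H3K4me3. Fos had 43.08 and 42.22% against 13.14 and 36.23%. Nr4a1, an orphan nuclear receptor induced within minutes of stimulation, had H3K27ac alone at 33.87 and 36.34% against 2.949 and 13.81%, and Egr1 likewise at 20.67 and 16.69% against 0 and 17.49%. Interferon response genes split more evenly: of 23, 9 had both, 7 had H3K27ac alone and 7 had neither, with Ifit3 and Oas1a among the 215.

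**Figure D4:**
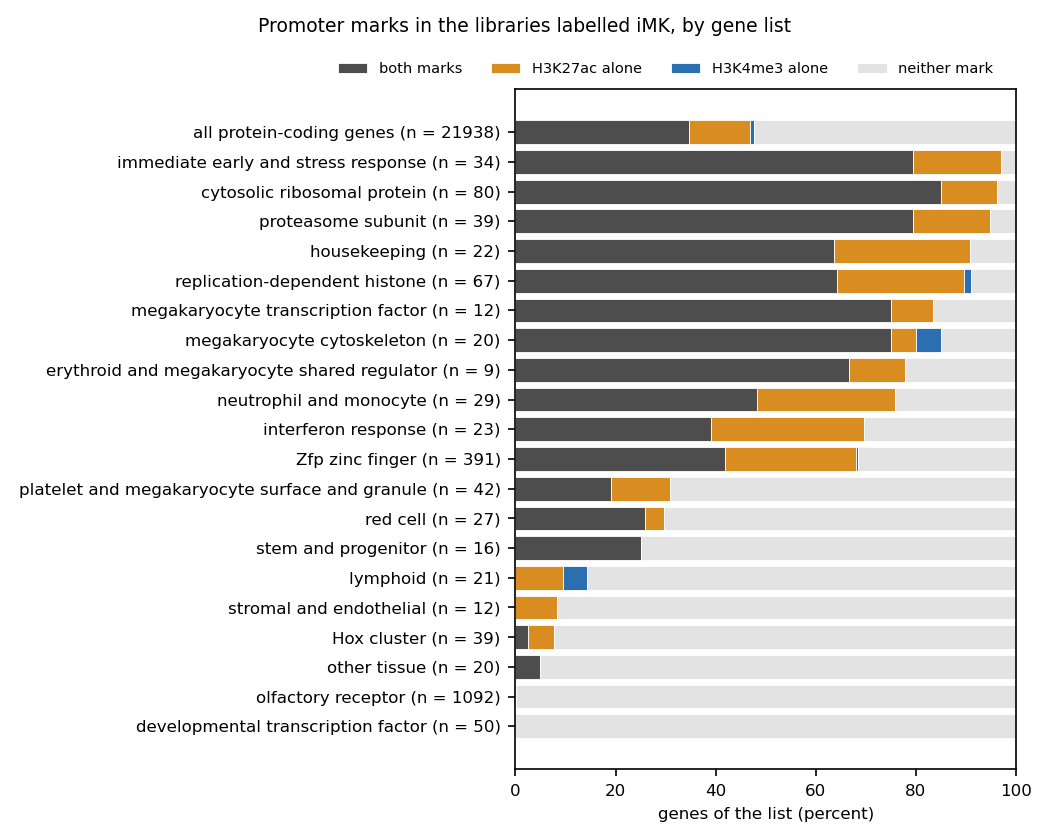
Percent of the genes of each list (x axis) in the 4 promoter classes, with all protein-coding genes in the top bar and the number of genes in brackets. Both marks (dark grey) take 34.7% of all genes, most ribosomal, proteasome and immediate early genes and none of the lymphoid, stromal or developmental transcription factor genes, while H3K4me3 alone (blue) is thin or missing throughout.

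The 215 genes with acetylation and no H3K4me3 promoter peak were led by coverage of the promoter window by Ccl3, F10, Siglecf, Wfdc17, Zfp750, Trem1, Gm5150, 6430531B16Rik, Pira2 and Cd300c2. Siglecf is a sialic acid receptor of eosinophils, and Pira2 and Cd300c2 are receptors of myeloid cells. Ccl3 had 31.61 and 40.7% of its locus under H3K27ac and 0 and 0% under H3K4me3. F10, coagulation factor X, had 29.7 and 28.18% against 0 and 0%, and its neighbour F7, coagulation factor VII, had 66.39 and 59.78% against 0 and 0%. Trem1, an activating receptor of neutrophils and monocytes, had 12.3 and 26.93% against 0 and 9.369%. The set also held Il1b, the inflammatory cytokine (19.34 and 26.87% against 0 and 0%), Apoe, a lipid carrier of macrophages (26 and 22.53% against 0 and 0%), and Itgax, which encodes CD11c (10.22 and 18.97% against 0 and 0%), all 3 named after their values were seen. F7 and F10 lie side by side, as do Ccl3 and Ccl4, so their loci overlap. The set depended on H3K4me3 replicate 2: without that library it came to 2675 genes, and without H3K27ac replicate 1 to 367. By construction the set can only grow when a library is left out.

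At the opposite end, 65 of the 151 H3K4me3-alone genes had no H3K27ac promoter peak in either library and 86 had one in 1 library. Ordered by H3K4me3 coverage of the promoter window, the first were Gcnt4, Rhof, Cdc42ep2, Fhl3, Slc25a27, Enpp4, Ppm1e, Tmem184c, Pif1 and Zfp251, and of these Rhof and Cdc42ep2 had no H3K27ac promoter peak at all. At Rhof the promoter windows were covered over 0 and 0% by H3K27ac and over 60.95 and 100% by H3K4me3. Its wider locus was nevertheless acetylated, over 19.12 and 23.15%, so the H3K27ac peaks lay away from the start. Cdc42ep2, an effector of the GTPase CDC42, had promoter coverage of 0 and 0% against 59.22 and 100%, and locus coverage of 13.02 and 10.28% against 6.854 and 20.56%.

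Most developmental genes had no promoter peak, and a few showed H3K4me3 without acetylation, in the longer list only. None of 50 developmental transcription factors had either mark by the 2-library rule, and 42 had no promoter peak in any of the 4 libraries. The other 8 (among them Gata6, Lhx1, Lhx2, Dlx1, Dlx2, Gbx2 and Irx5) had an H3K4me3 promoter peak in replicate 2 with no H3K27ac, beside 4.84% of all genes. Dlx1 had 0 and 0% of its locus under H3K27ac and 0 and 7.731% under H3K4me3. Of 39 Hox cluster genes, 33 had no promoter peak in any of the 4 libraries, Hoxb4 had both marks and 2 (among them Hoxa4) had H3K27ac alone. Hoxa3, Hoxa7 and Hoxa9 (3 of 39, beside 4.84% of all genes) were marked by H3K4me3 replicate 2 alone. With H3K4me3 replicate 1 left out, the 8 and these 3 fall in the H3K4me3-alone class by construction.

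Across the 14442 genes with a peak in at least 1 of the 4 libraries, limma's moderated test called 0 genes in either direction for locus coverage (0% each, adjusted p of at least 0.345), while 1502 (10.4%) had an unadjusted p under 0.05, 1470 of them with more H3K27ac. The difference at Etv6 was 34.66 ± 6.78 percentage points (SE, n = 2 per mark, limma adjusted p = 0.345), at Myh9 32.18 ± 7.01 (0.345), at F7 63.08 ± 11.61 (0.345) and at Fli1 20.05 ± 5.94 (0.368). Both H3K27ac libraries lay above both H3K4me3 libraries at 4045 genes (28%) and below both at 351 (2.43%). The first count came to 6090 without H3K27ac replicate 1 and 11205 without H3K4me3 replicate 2. The second came to 6857 without H3K4me3 replicate 1, and to 538 and 861 without H3K27ac replicates 1 and 2. Such counts can only rise when a library is left out. The median difference over all genes was 1.075 percentage points. It was -0.5506 without H3K4me3 replicate 1 and 3.601 without H3K4me3 replicate 2, so no overall direction between the marks can be given. Quantile normalization gave -0.6121, but it sets all libraries to the same distribution and cannot show such a direction.

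By list, H3K27ac lay above H3K4me3 without overlap at 15 of 29 neutrophil and monocyte genes, 9 of 19 cytoskeleton genes, 13 of 34 platelet genes and 4 of 11 megakaryocyte transcription factors with a peak, which is 51.72, 47.37, 38.24 and 36.36% beside 28% of all genes. It did so at 12 of 78 ribosomal protein genes, 4 of 38 proteasome genes and 2 of 67 replication-dependent histone genes (15.38, 10.53 and 2.985%). In these lists the reverse was seen at 1 cytoskeleton gene and 1 proteasome gene.

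The difference between the marks was then itself compared with that in ERY. In the limma interaction over 15159 genes, 550 (3.63%) had a larger and 2038 (13.4%) a smaller excess of H3K27ac over H3K4me3 in iMK libraries than in erythroblasts. Etv6 was among the first group: its ERY coverage was 0 and 0% for H3K27ac and 0.393 and 0% for H3K4me3, and the difference of differences was 34.86 ± 3.73 percentage points (SE, limma adjusted p = 0.00349). Fli1 was uncovered in all 4 ERY libraries (20.05 ± 4.58). F7 had 0.7019 and 0% under ERY H3K27ac and 0 and 0% under ERY H3K4me3 (62.73 ± 4.15, limma adjusted p = 0.00226). Ccl3 was at 0% in all 4 ERY libraries (36.15 ± 4.36). The fit took genes covered in any library, so Fli1 and Ccl3 entered only through the libraries labelled iMK. The test therefore adds no support to the differences at Fli1 and Ccl3, which are given as a description.

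In the second group stood Zfpm1, at 2.663 and 3.195% under H3K27ac and 0 and 6.124% under H3K4me3 in the libraries labelled iMK, against 83.61 and 80.22% and 5.858 and 2.663% in ERY (-77.79 ± 5.30, limma adjusted p = 0.00226). The value was -66.24 ± 8.43 at Gfi1b (limma adjusted p = 0.00544) and -33.75 ± 3.48 at Gata1. Gata1 had no peak at its locus in the libraries labelled iMK and entered the fit only through ERY, so its value is a description. The ERY H3K27ac libraries covered 77.05 and 64.88 Mb, more than any iMK library. Of the red cell list 23 of 27 genes were lower and 0 higher, of the 9 shared regulators 5 lower, of the platelet list 2 higher and 6 lower of 36, and of 11 megakaryocyte transcription factors 2 higher and 1 lower. Only 15 of the 27 red cell genes, 8 of the 9 shared regulators and 34 of the 36 platelet genes had a peak at their locus in the libraries labelled iMK. The rest entered the fit only through ERY, so these counts are a description. The neutrophil and monocyte list gave 0 in each direction of 29, with a median of 8.454 percentage points beside -2.275 over all genes. After quantile normalization 632 genes were higher and 851 lower, so the share of higher calls moved from 21.25 to 42.62%. The 550 came to 987 without iMK H3K27ac replicate 1, 1514 without iMK H3K4me3 replicate 2, 344 without ERY H3K27ac replicate 1, and 175 and 165 without ERY H3K4me3 replicates 1 and 2. The 2038 came to 1108 and 1146 without iMK H3K27ac replicates 1 and 2, 4973 without iMK H3K4me3 replicate 1, and 919 and 727 without ERY H3K4me3 replicates 1 and 2.

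Away from protein-coding starts, H3K27ac was the rule. Of the regions with replicated H3K27ac and no replicated H3K4me3, 8500 (71.77%) were distal and 3344 were at promoters, and 7211 of the distal ones had no H3K4me3 peak in either library. Of regions with both marks 6583 were at promoters and 214 (3.148%) were distal, a count that came to 1502 without H3K4me3 replicate 1. The distal regions with both marks differed from the acetylated ones in sequence: their median observed to expected CpG ratio was 0.5383, close to the 0.5814 of promoter regions with both marks, against 0.2047 for distal H3K27ac alone. A ratio of 0.4 was reached by 167 of the 214 (78.04%) and by 5.706% of the 8500. In ERY, both H3K27ac libraries had a peak in 64.95% of the 214 and both H3K4me3 libraries in 40.65%, against 16.56 and 0.8% of the 8500. The likeness to promoter regions rested on H3K4me3 replicate 1. Of the 8500, the 1288 with an H3K4me3 peak in replicate 2 had a median ratio of 0.2895. In these 1288, 23.52% reached 0.4 and 4.425% had H3K4me3 in both ERY libraries.

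**Figure D5:**
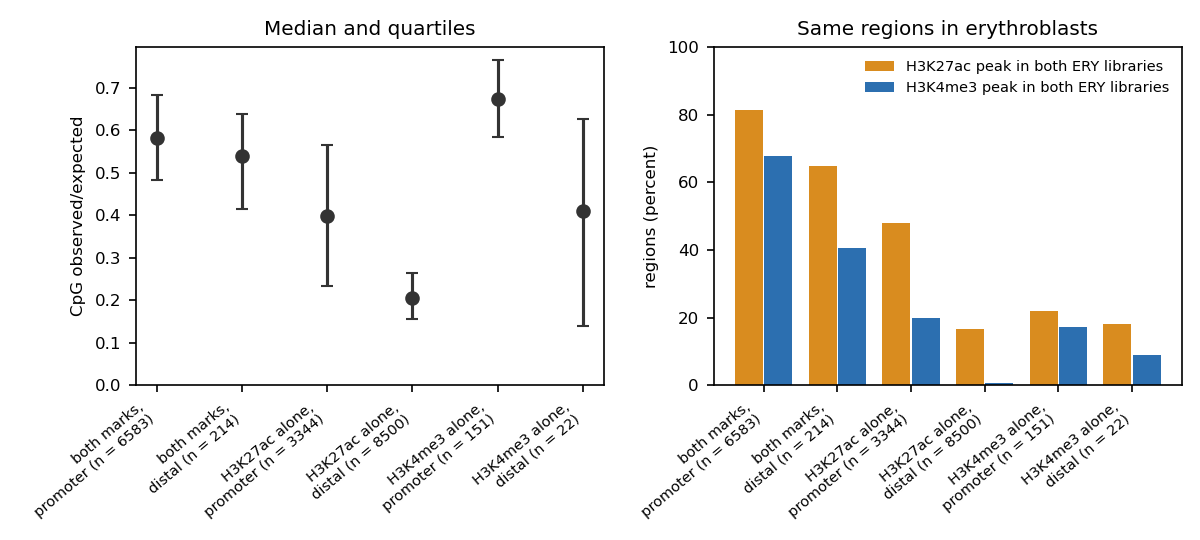
Left, median ratio of observed to expected CpG (points) with the lower and upper quartiles (bars) for the joined regions of each class at and away from protein-coding promoters, the number of regions in brackets. Right, percent of the same regions with an H3K27ac (orange) or H3K4me3 (blue) peak in both ERY libraries, which the classes did not use. With H3K4me3 replicate 1 required, distal regions with both marks (median 0.5383) resemble promoter regions with both marks (0.5814) more than distal H3K27ac-alone regions (0.2047).

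Many of the 214 lay near starts of genes not annotated as protein-coding. Of the 214, 110 (51.4%) lay within 1 kb of such a start, against 901 of 8500 (10.6%) H3K27ac-alone regions. These genes include pseudogenes and immunoglobulin segments as well as non-coding RNAs. The region with the most sequence under all 4 libraries, 5400 bp, was at the long non-coding RNA Malat1 (chr19:5797601-5809600), a nuclear speckle transcript. Others held Lockd near Cdkn1b (3600 bp), the start of Zswim6, annotated there as a processed transcript (3400 bp), Dleu2 (3000 and 2800 bp), Lncpint (2800 bp) and the nuclear paraspeckle RNA Neat1 (2600 bp). A region over the immunoglobulin heavy chain joining segments and Ighm (2800 bp) had a CpG ratio of 0.1349.

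Transfer RNA genes accounted for another share. They were looked up in RefSeq after the sequence near Hfe2 had been seen. A tRNA gene lay in 34 of the 214 distal regions with both marks (15.89%), in 37 of the 8500 with H3K27ac alone (0.4353%) and in 0.5705% of all distal regions, and the 34 held 68 of the 408 tRNA genes on the main chromosomes. Without H3K4me3 replicate 1 the shares were 3.728% of 1502 and 0.208% of 7212. The region near Hfe2 (chr3:96497201-96504000) held 5, n-TNgtt12, n-TKctt16, n-THgtg8, n-TGtcc7 and n-TEctc13, for asparagine, lysine, histidine, glycine and glutamate. It was covered over 3800 and 3400 bp by H3K27ac and over 3800 and 6800 bp by H3K4me3. All 34 had a CpG ratio of at least 0.4, and 17 (50%) had H3K4me3 in both ERY libraries. By the study's methods its mapping kept reads with matches at several places, so peaks at such repeated genes may hold reads from other copies.

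With regions near these other starts and those with tRNA genes set aside, 81 distal regions with both marks remained. Their median CpG ratio was 0.4679, and 54 reached 0.4. The intron of Rap1gap2 (chr11:74568401-74574000) was a CpG-poor example, at 0.1633. It was covered over 4000 and 5600 bp by H3K27ac and over 2800 and 5000 bp by H3K4me3, and in ERY over 4800 and 2400 bp by H3K27ac and 0 and 0 bp by H3K4me3.

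In the 600 bases around the middle of a region, GGGCGG was found in 52.8% of distal regions with both marks and in 13.78% of those with H3K27ac alone, beside 13.09% of all distal regions. The H3K27ac-alone regions more often held TGANTCA, the AP-1 site (20.88 against 10.28%), TGTGGT, the RUNX site (44 against 28.5%), and GAGGAAGT (10.88 against 5.14%). Their shares were close to those of all distal regions, at 19.46, 42.62 and 9.884%.

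The distal acetylated regions without H3K4me3 were spread unevenly among genes. By nearest start they fell to 4365 of 21911 genes (19.9%). Etv6 had 28, more than any other gene, of which 0 were found in both ERY H3K27ac libraries, and its gene is 234.5 kb long. Short genes also had many: Cited2, a transcriptional coregulator (2.457 kb), and Id2, an inhibitor of helix-loop-helix factors (3.342 kb), had 15 each and Klf4, a zinc finger factor of monocytes (5.324 kb), had 14. Runx1 had 14, of which 5 were acetylated in both ERY libraries. At least 1 such region lay nearest to 24 of 34 immediate early genes, 16 of 29 neutrophil and monocyte genes, 16 of 42 platelet genes, 6 of 12 megakaryocyte transcription factors, 3 of 27 red cell genes and 9 of 50 developmental transcription factors. The 6 megakaryocyte transcription factor genes had 43 regions in all, 28 of them at Etv6.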

How the data were processed

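Peak lists of the 4 iMK and 4 ERY ChIP-seq libraries were analysed. The 10 inputs were not used here. Bowtie 1.0.0, SICER 1.1 and mm10 appear, without a role, in the processing notes of the submitters, while the general methods of the study name another peak caller. Peak edges fell on a grid of 200 bp. The authors called peaks per library and deposited for each a fold over control (a ratio) and a p-value and q-value, all q under 0.01. The lists hold no depth, so no counting interval is given, and a locus at 0% is one with no listed peak. Peaks can span several elements, and list length depends on depth and control.

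Groups came from the labels. Replicate numbers follow submission order and pair nothing. By the study's methods replicates were different groups of mice or different sorted portions of the same mice, so p-values measure the spread between these libraries. Gene models came from GENCODE vM21 (mm10, protein-coding only), with promoters (1 kb each side of any start) called by at least 1 shared bp. Peaks of the 4 iMK libraries sharing at least 1 bp were joined into regions, distal when over 1 kb from every protein-coding start. Locus coverage (the gene plus 10 kb at either end) was compared with limma 3.58.1 (R 4.3.3, trend, no covariates) with Benjamini-Hochberg adjustment at 0.05 over all genes fitted, after a test on simulated data. Loci of neighbours overlap. RefSeq promoters matched 16539 protein-coding symbols. Position in exon or intron was taken at the region's middle.

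The members and gene lists were chosen with earlier results of these data known. Named genes followed a rule: up to 4 members of each marked class of a list by mean locus coverage and up to 3 unmarked by symbol, Itga2b and Itgb3, the 10 with the highest promoter coverage among genes with peaks of 1 mark only, the largest called differences, and the 10 longest distal regions with both marks. Some members are not reported here. Other names are members of the lists, or were chosen after their values were seen, as was the count of tRNA genes. Alternatives covered windows, q-value, list length, filters, normalization and each library left out.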

Additional observations from a re-analysis of the deposited data

Results flagged for a closer look

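The difference between the marks differed between the cell types by limma's interaction test at 550 genes with a larger and 2038 with a smaller excess of H3K27ac over H3K4me3 in iMK libraries than in erythroblasts. Among the largest positive differences of differences, in percentage points of the locus, were those at F7 (62.73), Cd300a (55.51), an inhibitory receptor of leukocytes, Prkcd (48.19), protein kinase C delta, and Ninj1 (47.44), an adhesion protein of the plasma membrane. Cd300a had 54.93 and 72.84% of its locus under H3K27ac and 4.045 and 12.71% under H3K4me3 in the libraries labelled iMK. It had 0% in all 4 ERY libraries, so it entered the fit only through the libraries labelled iMK, and its call is a description.

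The 5 largest negative values were at Msantd1 (-97.66), Ccdc74a (-92.43), Gm5767 (-90.79), Gm10260 (-89.71) and Hbb-y (-87.89), the embryonic beta-type globin. Msantd1 and Gm10260 had no peak in the libraries labelled iMK, and their ERY H3K27ac coverage was 98.22 and 97.1% and 88.33 and 91.09%. These genes entered the fit only through the ERY libraries, so their calls are likewise a description. The value at Hbb-y was unchanged whichever iMK library was left out, and its call is also given as a description. Gm5767 had 100% in both ERY H3K27ac libraries and 6.914 and 7.912% in those labelled iMK.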

How the results depend on the processing

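Leaving out each library in turn, H3K27ac alone ranged from 223 to 3079 genes, H3K4me3 alone from 87 to 1523, H3K27ac without any H3K4me3 peak from 223 to 2675 and distal regions with both marks from 218 to 1502. In limma the marks differed at 0 to 70 genes with more H3K27ac and 0 to 810 with less, and the interaction called 165 to 1514 higher and 727 to 4973 lower. Genes with both H3K27ac libraries above H3K4me3 ranged from 4067 to 11205 and with both below from 473 to 6857, counts tried after seeing the data. By construction, these counts and that of H3K27ac without any H3K4me3 peak can only rise when a library is left out. Without H3K4me3 replicate 1 specifically, H3K27ac alone came to 223, H3K4me3 alone to 1523, distal regions to 1502, and limma called 70 and 810, while the interaction called 4973 lower.

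With equal numbers of peaks in each list, H3K27ac alone came to 1038, H3K4me3 alone to 1782 and distal regions with both marks to 101, and the difference at Itgb3 reversed to -3.152. With 1 of 2 libraries enough to call a mark, H3K27ac alone came to 430, all without an H3K4me3 peak, and H3K4me3 alone to 1145. At q under 1e-05 the set without an H3K4me3 peak came to 339. Over 1 kb from the start of any gene, 104 distal regions with both marks remained by construction. Without the filter limma called 108 higher and 4 lower. Quantile normalization gave 851 lower in the interaction and 4678 genes with H3K4me3 above H3K27ac. Apart from what the construction sets, the causes of these changes were not tested. Both marks and neither mark stayed within 1.5 times their counts under every alternative run. At Itga2b the difference passed only without H3K4me3 replicate 1 (-6.517, limma adjusted p = 0.0185), and the interaction at Cd300a lost its call with lists of equal length (limma adjusted p = 0.11) and without ERY H3K27ac replicate 1, ERY H3K4me3 replicate 1 or ERY H3K4me3 replicate 2 (0.0514 to 0.0636). No paired analysis was possible because the labels carry no replicate numbers. The lists give no depth, so weak peaks cannot be told from noise.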

Other observations

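Housekeeping families had the marks in nearly full sets. Of 80 cytosolic ribosomal protein genes, 68 had both marks, 9 had H3K27ac alone and 3 had neither, and the 3 (Rpl10l, Rpl39l and Rpl3l) are copies used in few tissues. Of 39 proteasome subunits, 31 had both and 6 had H3K27ac alone, while the 2 with neither were Psma8 of the testis and Psmb11 of the thymus. Of 22 housekeeping genes, 14 had both and 6 H3K27ac alone, and 2 had neither, among them Eef2, although 22.03 and 28.21% of the Eef2 locus lay under H3K27ac. The X-linked Rpl10 and Rpl36a had H3K27ac alone, at 26.59 and 29.27% against 0 and 23% for Rpl10, and the lone H3K4me3 promoter peaks of both were in replicate 2.

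Of 67 replication-dependent histone genes, 43 had both marks, 17 H3K27ac alone, Hist1h1d H3K4me3 alone and 6 neither. Hist1h3g was covered over 58.45 and 65.27% by H3K27ac and over 27.28 and 67.85% by H3K4me3. Of 391 Zfp zinc finger genes, 164 had both, 102 H3K27ac alone, 2 (Zfp251 and Zfp664) H3K4me3 alone and 123 neither. Olfactory receptors were almost empty, with Olfr56 in both marks, Olfr433 in H3K27ac alone and 1090 of 1092 in neither, and of 20 genes of other tissues Mbp, which encodes a myelin protein, had both marks and 19 had neither.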
